A study of Ovis aries with 95 samples.

Results

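The genes described here are GFAP, AQP4, EAAT2 and MT3, 4 genes whose transcripts mark maturing astrocytes in mammalian brain. They were found on the array by gene name, by accession or by description, and are 4 of the 14347 genes that the array's probes fall into when probes of one name are averaged. They are read here by 7 probes of 60 bases, 1 for AQP4 and 2 for each of the others, and each probe has a single spot on an array. Another probe, named GLT-1 and described as SLC1A2, was kept apart, as set out below.

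Astrocytes are the glial cells that surround synapses and vessels. They arise late in brain development from the progenitors that first make neurons, and then take up transmitter, water and ions around the neurons that are already there. GFAP is the intermediate filament protein of astrocytes. AQP4 is the water channel of their endfeet on blood vessels and at the brain surface. EAAT2, the product of SLC1A2, is the transporter that clears most synaptic glutamate in the forebrain. MT3 is the brain form of metallothionein, a small protein that binds zinc and copper and is also found in neurons.

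Total RNA came from the cortex (a section of frontal cortex), brainstem, hippocampus and hypothalamus of sheep, either fetuses at 80, 100, 120, 130 or 145 d of gestation or newborn lambs 1 d old. The animals were not treated, and the ewes were not in labor. The labels give neither sex nor breed, and the methods give a range of a few days for the groups called 100 d and 145 d and 1 set of twins per group, which the labels do not mark. Cy3-labelled RNA of 1 sample was hybridized to each of 95 arrays, 4 in each of the 24 groups of region and age except hippocampus at 100 d, which has 3. Whole pieces of tissue were measured, so that fewer astrocytes and less RNA per astrocyte cannot be told apart. No slide holds arrays of more than 1 region, so slide and region cannot be told apart where regions are compared. Within a region arrays of different ages share slides, but not every slide holds both ages of a change. The main fits have no term for slide, which was a block only in an alternative fit.

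A level below is the log2 of the background-corrected, quantile-normalized intensity, a difference of 1 is a doubling, and levels are compared only within a gene. All 7 probes were well above background on every array, except for 1 EAAT2 probe on 1 hippocampal array, and none was saturated. Depending on the array, 59.53 to 88.49% of gene spots were well above background. The lowest share, 59.53%, was on a hippocampal array. The largest area that deviated from its group was on brainstem 1 d after birth replicate 4, with 5106 of its 15208 spots. Smaller areas, of 862 spots or fewer, lay on many hippocampal and hypothalamic arrays, and none on cortical or other brainstem arrays.

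The probes of AQP4, EAAT2 and MT3 are shown because the agreement of near-identical probes sets how far a single spot can be trusted. Capitals mark the bases that the 2 probes of a gene have in common.
AQP4 probe A_70_P030236: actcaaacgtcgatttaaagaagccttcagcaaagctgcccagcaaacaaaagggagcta
EAAT2 probe A_70_P026707: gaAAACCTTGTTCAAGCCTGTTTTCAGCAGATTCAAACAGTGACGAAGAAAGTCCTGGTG
EAAT2 probe A_70_P026706: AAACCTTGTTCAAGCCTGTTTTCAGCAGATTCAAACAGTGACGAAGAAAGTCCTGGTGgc
MT3 probe A_70_P030067: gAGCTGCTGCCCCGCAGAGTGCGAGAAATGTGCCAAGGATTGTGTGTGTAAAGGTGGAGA
MT3 probe A_70_P030066: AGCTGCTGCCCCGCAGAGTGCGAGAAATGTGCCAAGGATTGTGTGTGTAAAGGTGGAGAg
GLT-1 probe A_70_P041736: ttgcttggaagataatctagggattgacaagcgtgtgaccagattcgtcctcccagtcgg

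The probes of a pair share 57 bases for GFAP, 58 for EAAT2 and 59 for MT3 and lie at different places on the array. Over the arrays the GFAP probes correlated with a Pearson's r of 0.989 (n = 94 arrays), the EAAT2 probes with 0.803 (n = 95) and the MT3 probes with 0.855 (n = 94). In 283 readings of a pair the levels differed by over 1 on the log2 scale in 9, and 7 of these were in hippocampus. For EAAT2 these were the replicate 2 arrays of hippocampus at 120, 130 and 145 d and 1 d after birth, with the largest gap, 2.82, at 120 d, together with brainstem 1 d after birth replicate 4 and hypothalamus 1 d after birth replicate 1. For MT3 they were the replicate 2 arrays of hippocampus at 100 and 120 d, with a gap of 2.88 at 120 d. AQP4 has no other probe to compare with. The GLT-1 probe is described as SLC1A2 as well, but its level stayed between 6.45 and 7.36, it was well above background on 64 of 95 arrays, and its r with the EAAT2 probes was 0.104 and 0.164. The array lists it under another name, and it was left out of the EAAT2 average.

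**Figure D1:**
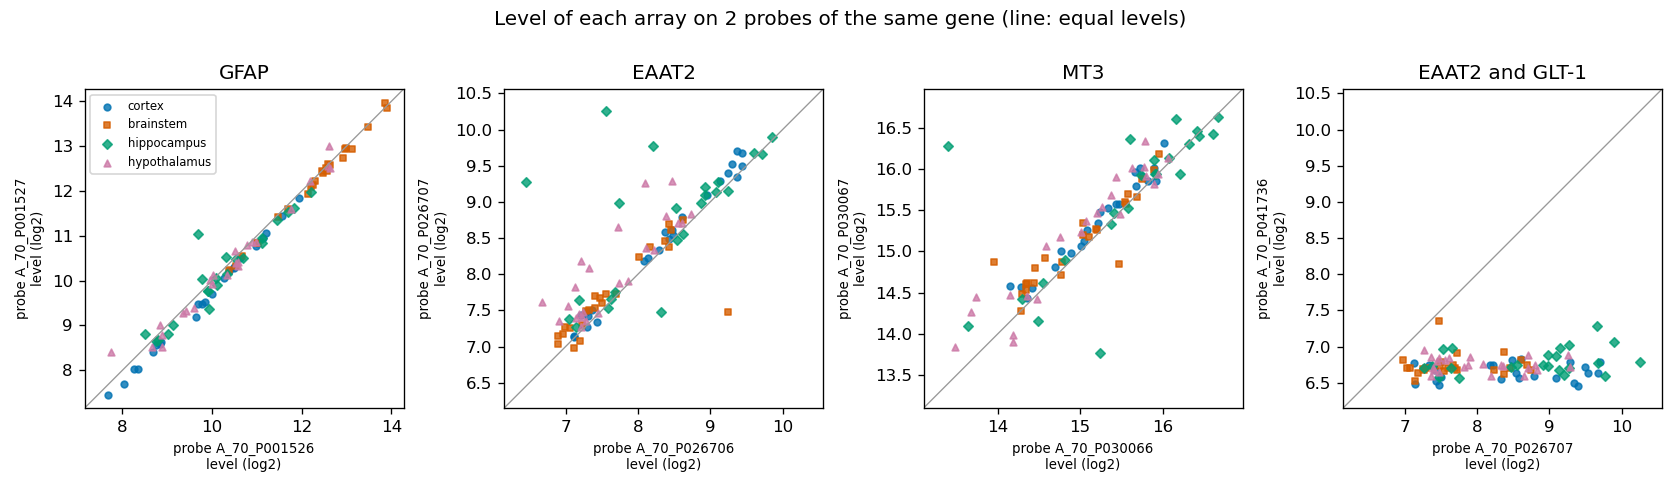
Levels (log2 intensity) of each array on pairs of probes, coloured by region, with the line of equal levels. The 2 probes of GFAP, EAAT2 and MT3 follow each other apart from single, mostly hippocampal, arrays, and the GLT-1 probe stays between 6.45 and 7.36 while the EAAT2 probe spans 6.98 to 10.26.

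The first question is whether the levels of these genes changed with age in each region. GFAP, EAAT2 and MT3 changed with age in all 4 regions, and AQP4 in cortex and brainstem (F test in limma with 80 d as the baseline of the 5 later ages, adjusted by Benjamini-Hochberg over all genes of the region). In cortex 4 of the 4 genes passed this test, where 45.7% of all 12904 genes did, and in brainstem 4 of 4, where 40.5% did. In hippocampus 3 of 4 passed, against 3.07% of all genes, and in hypothalamus 3 of 4, against 16% of all genes. The adjusted p of the F test ranged over the regions from 2.86e-11 to 2.02e-05 for GFAP, from 3.69e-12 to 0.00111 for EAAT2 and from 1.61e-08 to 0.000118 for MT3. For AQP4 it was 0.000867 in cortex, 0.0452 in brainstem, 0.0583 in hypothalamus and 0.934 in hippocampus. With the scanner's processed signal, aligned between arrays at the 75th percentile, MT3 in hippocampus did not pass (adjusted p = 0.126, limma) and AQP4 in hypothalamus did (adjusted p = 0.0169, limma).

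Between 80 and 145 d of gestation GFAP, EAAT2 and MT3 rose in every region and AQP4 rose in cortex and brainstem, which makes 14 of the 16 pairs of gene and region. Of all genes 18.7% rose over this interval in cortex, 2.12% in hippocampus, 5.68% in hypothalamus and 17% in brainstem. The median change of all genes was between -0.02 and 0.01 in each region.

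**Figure D2:**
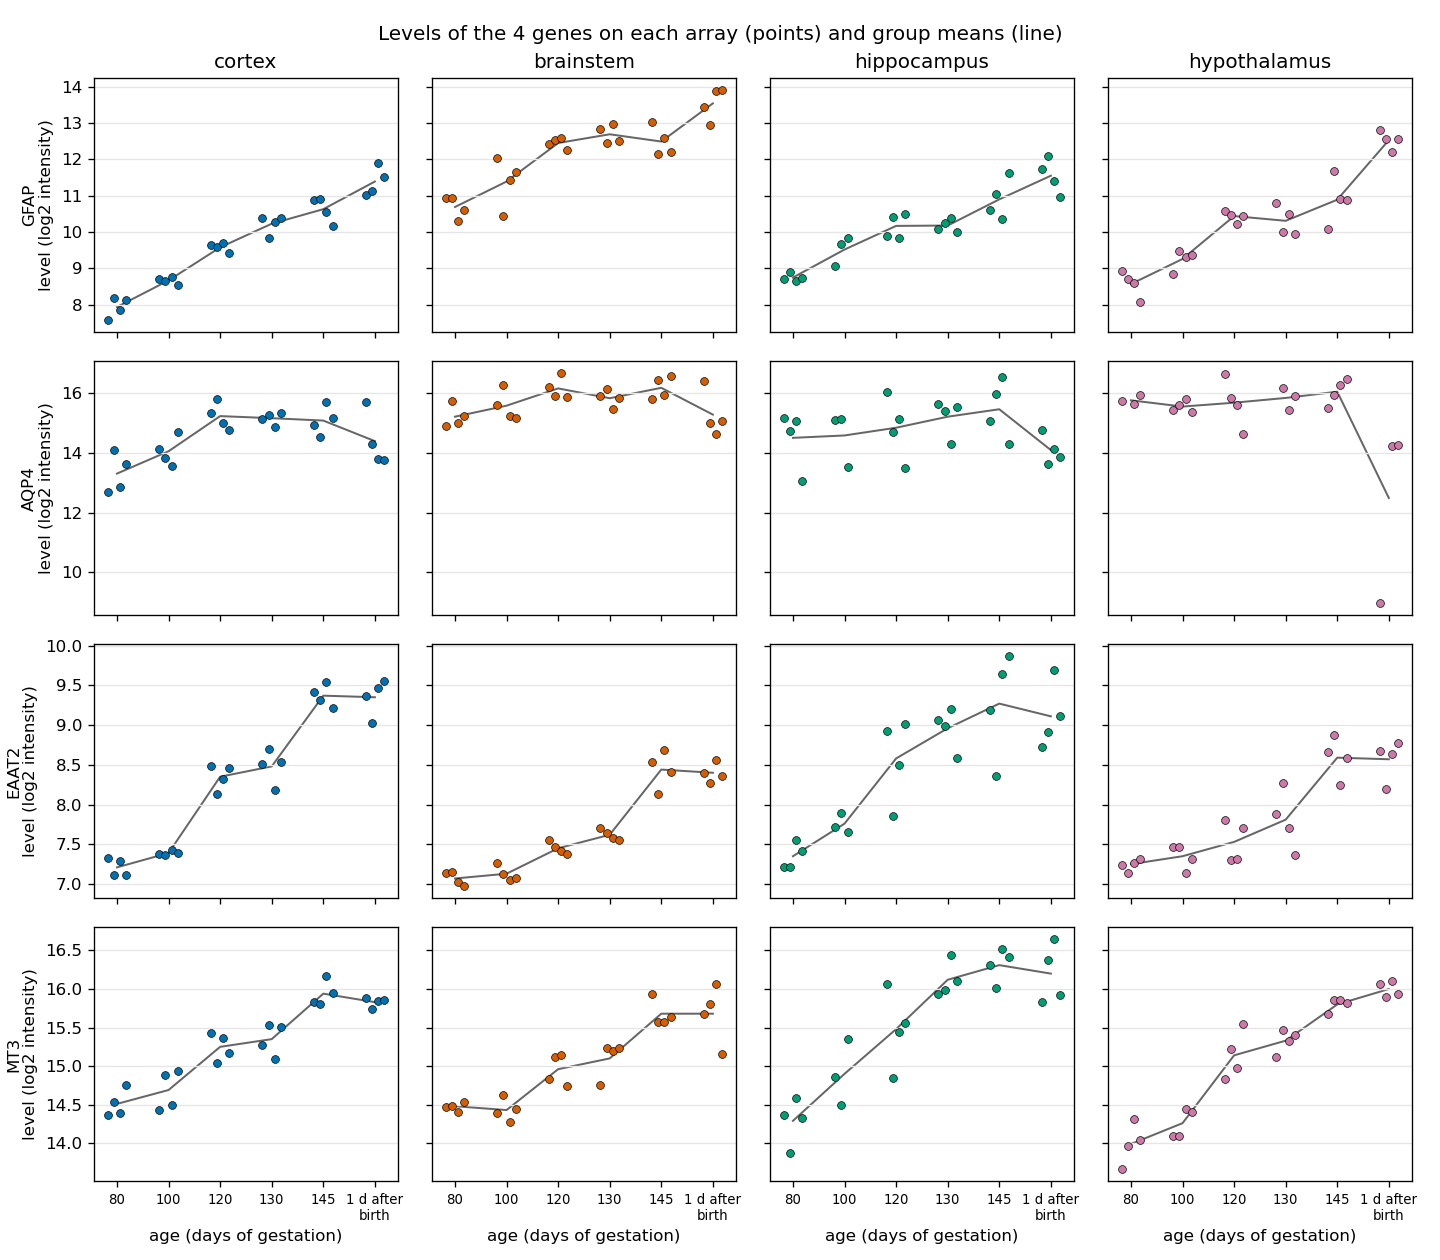
Level (log2 intensity) of each gene (rows) on each array (points) of each region (columns) by age, with the group means joined by a line. The GFAP mean 1 d after birth is above that at 145 d in each region (a change that passed in brainstem and hypothalamus), the EAAT2 and MT3 means at 145 d and 1 d after birth differ by at most 0.2, and the AQP4 means are lower 1 d after birth than at 145 d, with 1 hypothalamic array at 8.95.

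GFAP rose from 3.48-fold to 6.44-fold over this interval, depending on the region. In cortex its level was 7.57, 8.19, 7.87 and 8.14 on the 4 arrays at 80 d and 10.87, 10.92, 10.56 and 10.16 at 145 d. The arrays did not overlap, and each step from 80 to 100, 120 and 130 d also separated the groups. The rise was 2.69 ± 0.18 on the log2 scale (SE of the fit, n = 4 arrays per age), or 6.44-fold (adjusted p = 2.66e-10, limma). In hypothalamus the level went from 8.57 ± 0.36 (SD, n = 4) to 10.89 ± 0.66, a 5-fold rise (adjusted p = 4.69e-06, limma), and in hippocampus from 8.75 ± 0.11 to 10.90 ± 0.55, a 4.45-fold rise (adjusted p = 3.98e-05, limma). In brainstem the 80 d arrays were already at 10.94, 10.93, 10.30 and 10.60, above every 80 d array of the other regions. There the level reached 12.45 at 120 d and was 12.69 at 130 d and 12.49 at 145 d, a 3.48-fold rise from 80 d (adjusted p = 3e-05, limma). Within single slides the GFAP change was 2.22 to 3.06 in cortex, 1.59 to 2.29 in brainstem, 1.64 to 2.01 in hippocampus and 1.26 to 3.62 in hypothalamus on the log2 scale. Both GFAP probes gave these changes, from 1.77 to 2.63 on one and from 1.82 to 2.74 on the other. A probe for an unnamed transcript that the array design places in the same cluster as the GFAP probes followed them with an r of 0.968 and 0.973 over the arrays, and its fetal change was 3.57 in cortex, 2.1 in hippocampus, 2.82 in hypothalamus and 2.01 in brainstem.

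EAAT2 had its largest fetal change in cortex. Its level there was 7.33, 7.12, 7.29 and 7.12 at 80 d and 7.38, 7.37, 7.43 and 7.39 at 100 d. It was then 8.48, 8.13, 8.32 and 8.46 at 120 d, and 9.42, 9.32, 9.54 and 9.21 at 145 d. The cortical EAAT2 groups at 80, 100 and 120 d did not overlap, nor did those at 130 and 145 d. The whole rise was 2.16 ± 0.11 on the log2 scale (SE, n = 4 per age), or 4.47-fold (adjusted p = 9.62e-12, limma). In hippocampus the level rose 3.78-fold from 7.35 ± 0.17 to 9.27 ± 0.66 (SD, n = 4; adjusted p = 0.000355, limma).

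In brainstem EAAT2 was at 7.07 at 80 d, 7.13 at 100 d, 7.45 at 120 d and 7.62 at 130 d, and then at 8.53, 8.13, 8.69 and 8.41 on the arrays at 145 d, a rise of 2.59-fold in all (adjusted p = 2.22e-09, limma). The last interval gave 0.82 of the whole 1.37 on the log2 scale, or 1.07 of 2.26 with the scaled processed signal. In hypothalamus it was 7.81 at 130 d and 8.59 ± 0.27 (SD, n = 4) at 145 d, and its whole rise was 2.54-fold (adjusted p = 2.49e-05, limma). EAAT2 was dim at the early ages, where the offset of the background correction narrows changes: the dimmest signal that still counted as well above background was 6.46 on the median array. With the processed signal of the scanner software, which carries no offset, the EAAT2 change was 3.73 in cortex, 3.09 in hippocampus, 2.33 in hypothalamus and 2.26 in brainstem, so that the direction holds and the size depends on the background correction. Within single slides the EAAT2 change was 2.04 to 2.26 in cortex, 1.19 to 1.67 in brainstem, 1.57 to 2.22 in hippocampus and 1.14 to 1.56 in hypothalamus.

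MT3 rose from 2.30-fold to 4.08-fold, with the largest change in hippocampus. Its hippocampal level was 14.36, 13.87, 14.59 and 14.33 at 80 d and 16.31, 16.01, 16.52 and 16.42 at 145 d, with no overlap, a rise of 2.03 ± 0.25 on the log2 scale (SE, n = 4 per age) or 4.08-fold (adjusted p = 4.77e-05, limma). In hypothalamus it rose 3.49-fold from 13.99 ± 0.27 to 15.80 ± 0.09 (SD, n = 4; adjusted p = 5.78e-08, limma). In cortex it rose 2.69-fold from 14.51 ± 0.18 to 15.94 ± 0.16 (adjusted p = 1.28e-08, limma), and in brainstem 2.30-fold from 14.48 ± 0.05 to 15.68 ± 0.18 (adjusted p = 3.64e-06, limma). Within single slides its change was 1.3 to 1.42 in cortex, 1.11 to 1.27 in brainstem, 2.04 to 2.19 in hippocampus and 1.53 to 1.85 in hypothalamus.

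The AQP4 arrays of a group spread widely. In cortex AQP4 was 12.70, 14.10, 12.85 and 13.62 at 80 d and 14.12, 13.85, 13.57 and 14.72 at 100 d. At 120 d it was 15.36, 15.80, 15.02 and 14.76, above every array of the earlier ages, and the group mean then stayed between 15.09 and 15.24 to 145 d. The cortical rise from 80 to 145 d was 3.42-fold (1.77 ± 0.38 on the log2 scale, SE, n = 4 per age; adjusted p = 0.000632, limma).

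In brainstem AQP4 was 14.92, 15.74, 15.00 and 15.24 at 80 d and 15.80, 16.44, 15.94 and 16.58 at 145 d. The lowest 145 d array lay just above the highest 80 d array, and the rise was 1.95-fold (0.97 ± 0.32 on the log2 scale, adjusted p = 0.02, limma), or 1.49 on the log2 scale with the scaled processed signal. This brainstem call was lost without 80 d replicate 1 or 3 or without 145 d replicate 2 or 4, with a highest adjusted p of 0.0675 (limma). The F test over ages was close to its threshold there as well, and passed without 1 array only when that array was 80 d replicate 2, 100 d replicate 2, 120 d replicate 4, 130 d replicate 3, 145 d replicate 1 or 1 d after birth replicate 1 (adjusted p between 0.00233 and 0.0893 over the 24 arrays left out, limma). In hippocampus the difference was 0.96 ± 0.59 (adjusted p = 0.448, limma) and in hypothalamus 0.28 ± 0.86 (adjusted p = 0.892, limma). AQP4 was at 15.77 ± 0.15 in hypothalamus at 80 d (SD, n = 3), the highest mean of the 4 regions at that age, and 16.06 ± 0.42 at 145 d (n = 4).

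**Figure D3:**
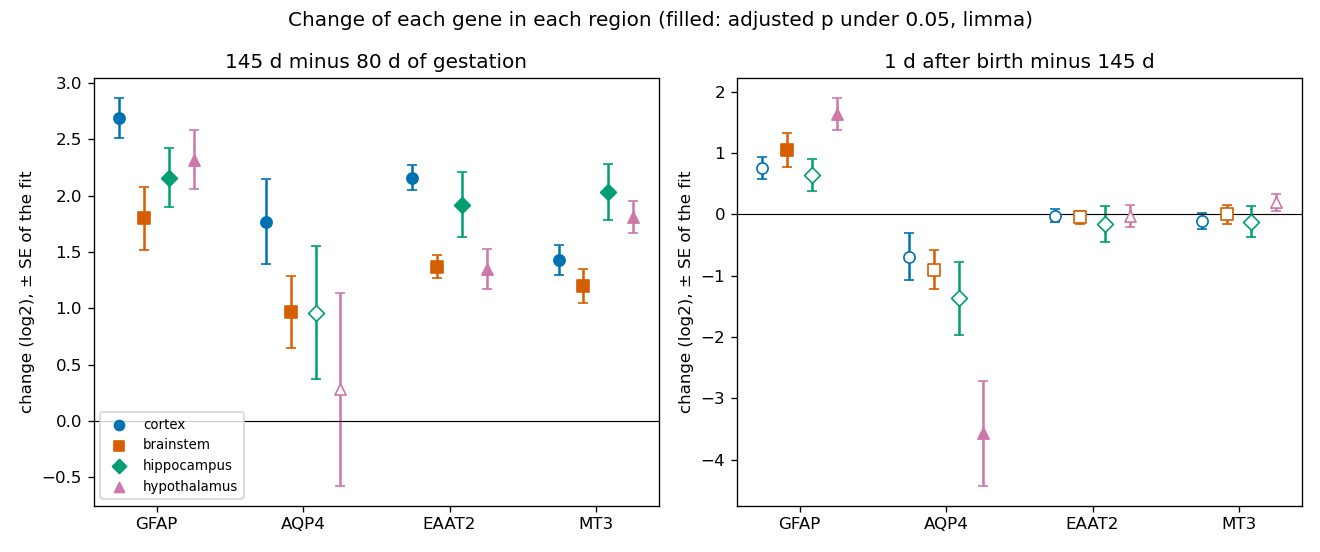
Change of each gene in each region on the log2 scale with the SE of the fit, for 145 d minus 80 d (left) and 1 d after birth minus 145 d (right). Filled symbols passed an adjusted p of 0.05. On the left 14 of 16 changes passed, and on the right GFAP is above 0 in each region, AQP4 below 0 in each, and EAAT2 and MT3 lie within 0.2 of 0.

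Whether the fetal change differed between regions was tested for each gene in one fit over all 95 arrays. The methods give 4 fetuses per age for the 4 regions, so that arrays of different regions share animals, which the labels do not mark, while the fit treats the arrays as independent. EAAT2 passed this test (adjusted p = 0.0424, limma interaction F test), with changes of 2.16 in cortex, 1.92 in hippocampus, 1.37 in brainstem and 1.35 in hypothalamus, where 11.6% of all 12317 genes tested passed. Its call was lost without any 1 of 19 of the 95 arrays, namely cortex 80 d replicates 2, 3 and 4 and 145 d replicates 1, 2 and 3, brainstem 80 d replicates 1, 2 and 3 and 145 d replicates 2 and 4, hippocampus 80 d replicates 1 and 2 and 145 d replicate 4, and hypothalamus 80 d replicates 1, 3 and 4 and 145 d replicates 3 and 4, with adjusted p values up to 0.0805 (limma). With a normexp offset of 16 it had an adjusted p of 0.108 (limma). For MT3 the adjusted p was 0.0569, for GFAP 0.325 and for AQP4 0.622 (limma). With the scaled processed signal GFAP passed as well as EAAT2 (adjusted p = 0.0318, limma), with changes of 3.46 in cortex, 2.65 in hypothalamus, 2.43 in hippocampus and 1.93 in brainstem. A difference of the birth change between regions was not called for any of the 4 genes (adjusted p from 0.316 to 1, limma, with AQP4 and GFAP at an unadjusted p of 0.00323 and 0.0345), where 0.0812% of all genes passed.

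At birth the calls of the 4 genes differed, though the genes were not tested against each other. From 145 d to 1 d after birth GFAP rose in brainstem and hypothalamus, AQP4 fell in hypothalamus, and neither EAAT2 nor MT3 passed the test in any region (unadjusted p of 0.179 or more, limma). Few genes of the array passed at birth, and a gene that did not pass may still have changed. In simulated data with each region's spread, a birth change of 1 on the log2 scale was recovered unequally. The share of changed genes called was 34% in hippocampus, 72% in hypothalamus, 84% in brainstem and 91% in cortex. Of all genes 0.163% rose and 0.0852% fell in cortex, 3.68% rose and 1.22% fell in brainstem, 0.00788% rose and 0% fell in hippocampus, and 1.42% rose and 1.06% fell in hypothalamus. In hippocampus 0 of the 4 genes passed in limma at birth, with GFAP and AQP4 at an unadjusted p under 0.05 (0.0246 and 0.0305).

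In hypothalamus GFAP was 10.08, 11.69, 10.92 and 10.88 at 145 d and 12.80, 12.57, 12.20 and 12.57 1 d after birth. The newborn arrays all exceeded those at 145 d, and the rise was 3.12-fold (1.64 ± 0.26 on the log2 scale, SE, n = 4 per age; adjusted p = 0.00664, limma), after which the level was 15.6-fold that at 80 d. In brainstem GFAP was 13.03, 12.15, 12.59 and 12.19 at 145 d and 13.45, 12.95, 13.87 and 13.91 1 d after birth. One newborn array lay within the range at 145 d, and the rise was 2.07-fold (adjusted p = 0.0321, limma). The brainstem call was lost without 145 d replicate 2, 3 or 4 or newborn replicate 3 or 4 (adjusted p up to 0.1, limma). Newborn replicate 4 is the brainstem array with the deviating area. The call was also lost with the scanner's processed signal at the 75th percentile scaling (0.87 on the log2 scale, adjusted p = 0.0915, limma). In cortex the newborn GFAP arrays all lay above those at 145 d, at 11.03 to 11.89 against 10.16 to 10.92, and the difference of 0.76 ± 0.18 had an adjusted p of 0.0964, or of 0.0219 without newborn replicate 1 (limma). In hippocampus the difference was 0.64 ± 0.26 (adjusted p = 1, limma). Within single slides the GFAP difference at birth was 0.88 to 2.72 in hypothalamus, 0.35 to 1.69 in brainstem, 0.17 to 1.34 in cortex and -0.43 to 0.91 in hippocampus.

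AQP4 was lower on most newborn arrays. In cortex it was 14.93, 14.55, 15.71 and 15.17 at 145 d and 15.73, 14.31, 13.80 and 13.77 1 d after birth. Newborn replicate 1 was above every 145 d array and the other newborn arrays were below every one of them, and the difference was -0.69 ± 0.38 (adjusted p = 0.737, limma). In brainstem the newborn arrays were at 16.41, 15.00, 14.65 and 15.09, so that here too replicate 1 lay among the 145 d arrays and the others below them all. The brainstem difference of -0.9 ± 0.32 had an adjusted p of 0.108, and of 0.00647 without newborn replicate 1, when it was -1.27 (limma). In hippocampus the newborn arrays were at 14.78, 13.62, 14.15 and 13.86 against 15.06, 15.98, 16.56 and 14.31 at 145 d, a difference of -1.37 ± 0.59 (adjusted p = 1, limma).

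In hypothalamus AQP4 was 15.52, 15.94, 16.29 and 16.48 at 145 d and 8.95, 14.25 and 14.28 on newborn replicates 1, 3 and 4. The spot of newborn replicate 2 carried an outlier mark and was left out of the fit, as were those of 80 d replicate 2 and 130 d replicate 1, and it read 14.65. All newborn readings lay below all those at 145 d. The fall was 3.57 ± 0.86 on the log2 scale, or 11.8-fold (adjusted p = 0.0404, limma), and its size rested on newborn replicate 1, since it fell by 1.79 without that array and still passed. The call was lost without any 1 of 10 other arrays, namely 80 d replicates 3 and 4, 100 d replicates 1 and 3, 130 d replicate 3, 145 d replicates 1, 2, 3 and 4 and newborn replicate 2 (adjusted p up to 0.0966, limma). With the marked spots kept it fell by 3.02 (adjusted p = 0.0657, limma). The spots around the AQP4 spot of replicate 1 deviated from their group by -0.04 in the median. On the same array GFAP was 12.80, EAAT2 8.68 and MT3 16.07, and the mean of 9 other astrocyte genes was 10.11, against 9.68 to 9.89 on the other newborn arrays. The array is also the 1 hypothalamic array on which the EAAT2 probes differed by over 1, at 8.10 and 9.26. What set this single AQP4 reading was not tested.

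The EAAT2 and MT3 means differed by at most 0.2 between 145 d and 1 d after birth. The cortical EAAT2 arrays were at 9.36, 9.03, 9.47 and 9.55 1 d after birth, within or next to the range at 145 d, and the difference was -0.02 ± 0.11 (adjusted p = 0.999, limma). It was -0.05 ± 0.1 in brainstem, -0.16 ± 0.29 in hippocampus and -0.02 ± 0.18 in hypothalamus. The difference of MT3 was -0.11 ± 0.13 in cortex, -0.12 ± 0.25 in hippocampus, 0 ± 0.15 in brainstem and 0.2 ± 0.14 in hypothalamus (adjusted p from 0.47 to 1, limma). In hypothalamus each newborn MT3 array, at 16.07, 15.90, 16.10 and 15.94, lay above each 145 d array, at 15.67, 15.86, 15.86 and 15.82.

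The order of the regions by level was set out at 80 d, at 145 d and 1 d after birth. GFAP was highest in brainstem at all 3 ages. At 80 d its mean there was 3.85-fold that of hippocampus, the next region, at 145 d 3-fold, and 1 d after birth 2.01-fold that of hypothalamus, each time with no overlap of the arrays. Hippocampus, hypothalamus and cortex followed, and at 145 d their GFAP arrays overlapped. At 1 d after birth hypothalamus stood 1.98-fold above hippocampus with no overlap. For AQP4 the neighbours in the order overlapped at all 3 ages, from hypothalamus to cortex at 80 d and from brainstem to cortex at 145 d. For EAAT2 all neighbours overlapped as well, with cortex and hippocampus above hypothalamus and brainstem at 145 d and 1 d after birth. Regions further apart in the order were not tested, and some did not overlap. EAAT2 at 145 d was 9.21 to 9.54 in cortex and 8.13 to 8.69 in brainstem. AQP4 at 80 d was 15.64 to 15.94 in hypothalamus and 12.70 to 14.10 in cortex. MT3 was highest in hippocampus at 145 d (16.31) and 1 d after birth (16.20), and 1 pair of neighbours, hypothalamus over cortex 1 d after birth, did not overlap. Of the 36 neighbours compared, 5 did not overlap (two-sided exact permutation test). With 4 arrays against 4 this test cannot go below 0.0286, the p of these 5 in the exact permutation test, which was 0.206 after adjustment over the 36. The share of all array genes whose regions separate in this way was not counted.

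The same test between successive ages separated 25 of 80 pairs of groups, with an adjusted p of 0.109 or, where a group had 3 arrays, 0.152 (exact permutation test, two-sided). In GFAP these lay mostly at or before 130 d, and the step from 100 to 120 d separated the arrays in all 4 regions, by 1.88-fold in cortex, 1.56-fold in hippocampus, 2.26-fold in hypothalamus and 2.09-fold in brainstem. In MT3 the step from 100 to 120 d and that from 130 to 145 d separated the arrays in cortex, brainstem and hypothalamus, with 1.38-fold to 1.84-fold changes. In hippocampus no single step of MT3 separated the groups. How many of all array genes separate at each step was not counted, so these steps are not set against the array as a whole.

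Over the 24 group means EAAT2 and MT3 ran together with a Pearson's r of 0.922, as a description over groups that share arrays, slides and regions. The r of GFAP was 0.539 with MT3 and 0.358 with EAAT2. AQP4 had an r of 0.209 with GFAP, or of 0.495 when the newborn hypothalamus was left out, and of -0.119 with EAAT2 and -0.0962 with MT3.

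**Figure D4:**
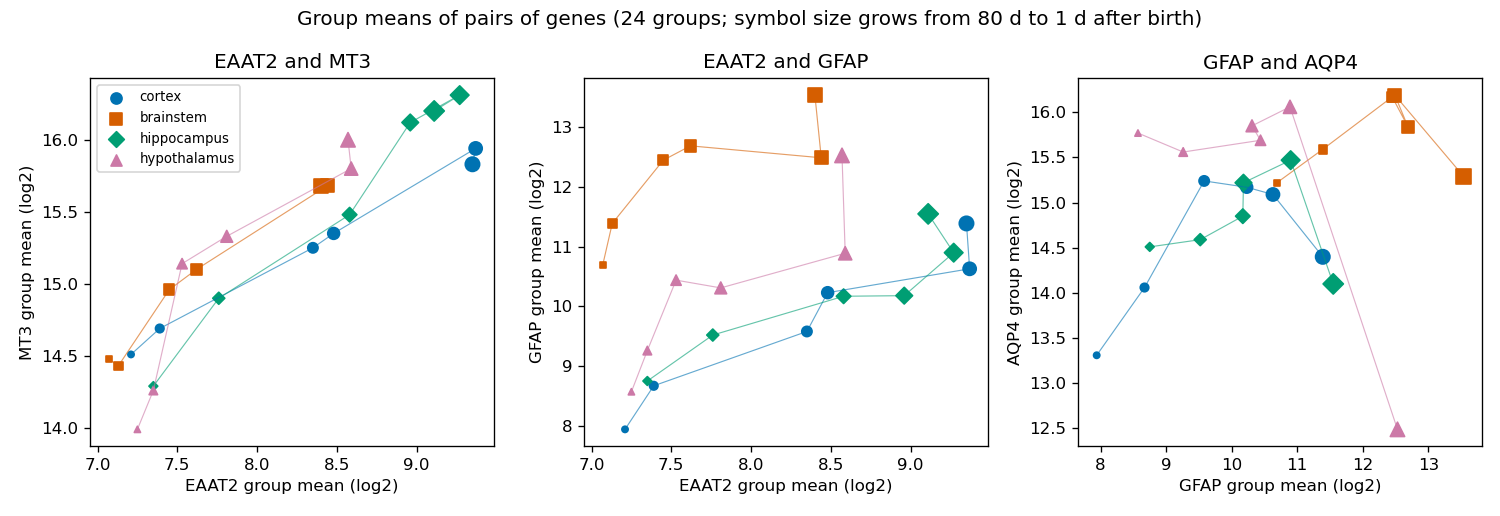
Group means (log2 intensity) of pairs of genes in the 24 groups, joined by age within a region, with larger symbols for later ages. EAAT2 and MT3 lie along one band (r = 0.922), GFAP in brainstem stands above the other regions at like EAAT2 levels, and AQP4 turns down at the last symbol of each region.

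Among the 832 genes with a symbol that were tested in all regions, those with group means most like GFAP were CD81, a tetraspanin of many cell types (r = 0.926), PYGM, a glycogen phosphorylase (r = 0.905), and CYP2J, a cytochrome P450 (r = 0.9). These genes were chosen on the same arrays for group means like those of GFAP, so their fetal changes are a description and no separate support. The fetal change of PYGM passed in each region, at 2.29 in cortex, 1.8 in hippocampus, 1.5 in hypothalamus and 1.15 in brainstem. That of CYP2J also passed in each region, and that of CD81 in all but hippocampus (1.07, adjusted p = 0.463, limma). Unlike for GFAP, the birth change of these genes did not pass in any region (adjusted p from 0.0598 to 1, limma). For EAAT2 they were ATP1B1, a subunit of the sodium pump (r = 0.869), PRNP, the prion protein (r = 0.859), and ETS2, a transcription factor (r = 0.849). For MT3 they were SLC25A26, a mitochondrial carrier (r = 0.84), ETS2 (r = 0.806) and PRNP (r = 0.797). For AQP4 they were EDNRA, an endothelin receptor (r = 0.738), CFTR, a chloride channel (r = 0.691), and SLC2A3, a glucose transporter of neurons (r = 0.635). EDNRA and CFTR did not pass the F test in any region (adjusted p of 0.057 or more, limma), and their r without the newborn hypothalamus was 0.596 and 0.826.

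Of 58 other astrocyte genes listed, 9 had a named probe. In cortex 7 of the 9 rose from 80 to 145 d and the other 2 did not pass, where 18.7% of all genes rose and 22.7% fell. They were EAAT1, the other glial glutamate transporter (1.85 on the log2 scale), GJA1, the gap junction protein connexin 43 (1.54), the glucose transporter GLUT-1 (0.93), GLUD1, glutamate dehydrogenase (0.79), PYGB, the brain glycogen phosphorylase (0.68), FGFR3, a growth factor receptor of glial precursors (0.31), and CP, the copper protein ceruloplasmin (0.3). Their median change was 0.68 over the 9 genes.

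In brainstem 2 of these 9 rose, CP (0.89 on the log2 scale) and GJA1 (0.73), and 3 fell, GLUD1 (-0.83), VIM (-0.64) and FGFR3 (-0.34), where 17% of all genes rose and 20.5% fell. VIM, vimentin, is the intermediate filament of immature astrocytes and radial glia. EAAT1 was unlike EAAT2 there, with a change of 0 ± 0.17 (adjusted p = 0.993, limma). In hippocampus and in hypothalamus 1 of 9 rose, CP in both, and the other 8 did not pass, where 2.12% and 5.68% of all genes rose. At birth GLUT-1 fell by 0.53 in cortex (adjusted p = 0.0484, limma), the 1 call among these genes.

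**Figure D5:**
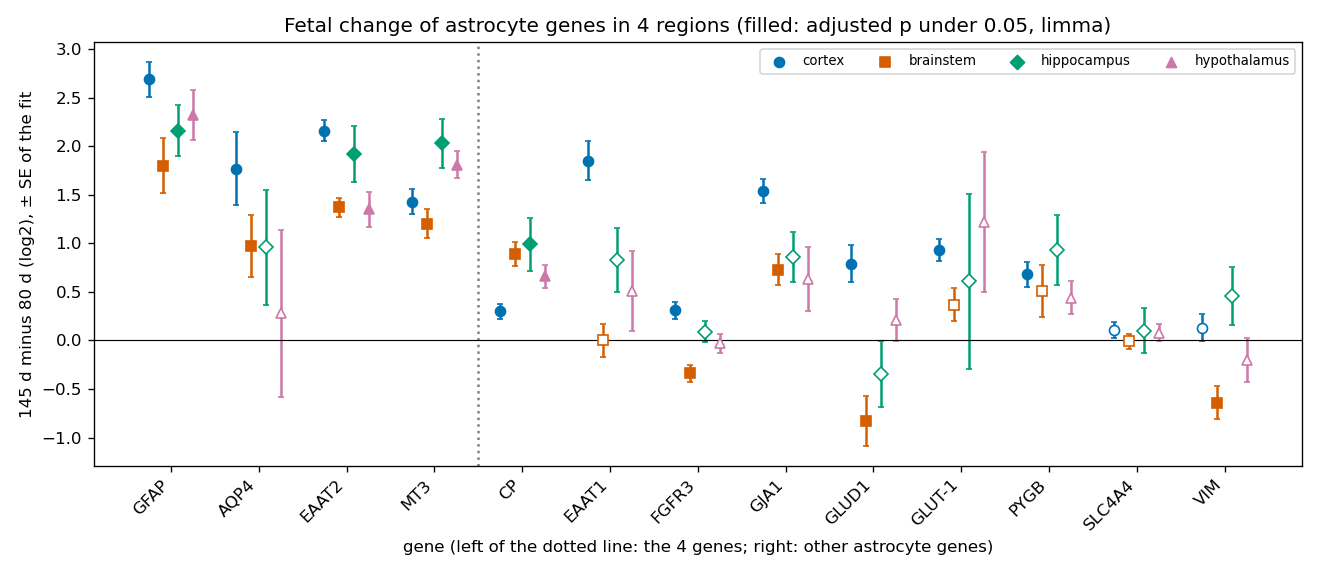
Change from 80 to 145 d (log2) with the SE of the fit for GFAP, AQP4, EAAT2 and MT3 and for 9 other astrocyte genes in each region, with filled symbols for an adjusted p under 0.05. In cortex 11 of these 13 genes rose, and in brainstem EAAT1 is at 0 while GLUD1, VIM and FGFR3 are below it.

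Of 39 genes of signals known to induce astrocytes, 21 had a named probe. FGF1, a fibroblast growth factor, was the gene of this list that changed in each region, rising by 1.61 in cortex, 2.51 in hippocampus, 1.02 in hypothalamus and 1.33 in brainstem on the log2 scale. BMPR1B, a receptor of bone morphogenetic proteins, rose by 1.04 in cortex and 0.82 in brainstem, and SMAD4, which carries their signal to the nucleus, fell in cortex (-0.48), brainstem (-0.75) and hippocampus (-0.78). BMP7 rose by 0.98 and BMP4 by 0.79 in cortex. In total 6 of 21 genes tested rose and 3 fell in cortex, where 18.7% of all genes rose and 22.7% fell, and 6 of 20 rose and 4 fell in brainstem, where 17% rose and 20.5% fell. In hippocampus 1 of 20 rose and 1 fell, where 2.12% of all genes rose and 2.43% fell, and in hypothalamus 1 of 21 rose and 1 fell, where 5.68% rose and 8.45% fell. The shares that fell in cortex and brainstem are no higher than those of all genes. At birth 4 of the 20 fell in brainstem, where 1.22% of all genes fell, namely the growth factors TGFB2 (-0.87), IGF1 (-0.67) and FGF2 (-0.66) and NR3C1, the glucocorticoid receptor (-0.59).

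Markers of other cells moved over the same ages. Between 80 and 145 d, 18.7% of all genes rose and 22.7% fell in cortex, and 17% and 20.5% in brainstem. In hippocampus 2.12% rose and 2.43% fell, and in hypothalamus 5.68% rose and 8.45% fell. The 3 named oligodendrocyte genes of 19 listed, CRYAB, CX32 and TF, all rose in each region, with a median change of 3.45 in cortex, 4.72 in hippocampus, 4.19 in hypothalamus and 3.73 in brainstem. Their mean level was 7.93 to 8.22 on the cortical arrays at 80 d and 11.41 to 11.91 at 145 d, and 10.45 to 10.57 and 14.14 to 14.44 in brainstem. CRYAB, a small heat shock protein, is also made by astrocytes. The 5 named cell cycle genes of 13 listed, CDK1, CCNA2, PCNA, TYMS and AURKA, all fell in cortex and brainstem, and 4 fell in hypothalamus and 2 in hippocampus. Their mean level was 8.21 to 8.72 on the cortical arrays at 80 d and 7.43 to 7.74 at 145 d. The part of these cells in the changes of the 4 genes was not tested.

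Of the 6 named neuronal genes, 2 rose and 1 fell in cortex, 1 rose and 3 fell in brainstem, 1 fell in hippocampus and 3 fell in hypothalamus, against 18.7% of all genes rising and 22.7% falling in cortex, 17% and 20.5% in brainstem, 2.43% falling in hippocampus and 8.45% in hypothalamus. NEUROD1, a transcription factor of young neurons, fell in each region, with a change of -4.8 in brainstem and -2.24 in hippocampus. The cortical rises were those of SST (1.48) and NPY (0.72), genes that both fell in brainstem (-1.9 and -1.09). OXT was the gene with a brainstem rise (0.64). The other hypothalamic falls were those of GRIN1 (-0.78) and POMC (-0.89). ITGAM, a microglial gene, rose between 80 and 145 d in cortex (0.35) and hypothalamus (0.71), where 18.7% and 5.68% of all genes rose. ITGAM and CD14 both rose at birth in brainstem and CD14 in hypothalamus (by 0.72), where 3.68% and 1.42% of all genes rose. In cortex the CD14 difference at birth was 1.05 (adjusted p = 0.0658, limma). Their mean level on the hypothalamic arrays was 7.37 to 7.8 at 145 d and 7.36 to 8.08 1 d after birth, and on the brainstem arrays 7.35 to 7.46 and 7.61 to 8.47. Among 6 vessel genes the efflux pump gene ABCB1 rose at birth in cortex (0.85) and brainstem (0.83), where 0.163% and 3.68% of all genes rose. Between 80 and 145 d ABCB1 and FLT1 rose and TIE1 fell in cortex, where 18.7% of all genes rose and 22.7% fell. TIE1 also fell in brainstem, where 20.5% of all genes fell. The choroid plexus genes AQP1 and TTR had fetal changes from -1.2 to 0.42 (adjusted p of 0.376 or more, limma), and TTR spread widely within groups. Of 8 named pituitary genes, 4 to 7 were tested per region. Between 80 and 145 d 1 of them fell in brainstem and 1 in hypothalamus, where 20.5% and 8.45% of all genes fell. Of the 2 erythroid genes 1 rose and 1 fell in brainstem, where 17% of all genes rose and 20.5% fell.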

How the data were processed

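Total RNA of 4 brain regions at 6 ages was measured on 95 one-colour arrays, grouped by the sample labels. The authors deposited, for each array, scanner files (Feature Extraction 10.1.1.1, per the file headers) with the mean and the local background intensity of each spot, and a table of log2 values normalized in ways not given in full in the sources used here. Each of its 95 columns followed its own array (lowest r 0.999), and column medians were 9.04 to 9.1.

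From the deposited intensity values, background was removed by normexp with an offset of 50, which narrows changes of dim probes, and arrays were quantile normalized together (limma 3.58.1, R 4.3.3). Control spots and spots with an outlier mark were left out. In each region probes were kept that, on 4 or more arrays, exceeded the 77 negative controls' 95th percentile by a factor of 1.1, and probes of a gene were averaged. Of 15008 probes 1556 had a name, from the files or by match to the RefSeq table of ARS-UI_Ramb_v3.0. No coordinates are given, since the files hold none.

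Ages were fitted within each region by lmFit and eBayes. The F test over ages stands in for the Bayesian test of the methods. All p values were Benjamini-Hochberg adjusted over all genes, at a threshold of 0.05. Labels do not mark animals, and p values measure the spread between arrays. Exact permutation tests used scipy 1.17.1, and figures matplotlib 3.10.9. The fits were tested on simulated data. A fetal change of 1 on the log2 scale was called there for 36.5% of changed genes in hippocampus. It was called for 75.5% in hypothalamus, 88.5% in brainstem and 92.5% in cortex. Alternatives were another offset, the processed signal, the authors' log2 table, quantile normalization within a region, no filter, the brightest probe, other eBayes settings, replicate and slide blocks and leaving out each array. Genes with group means most like a member, and the genes passing the F test in most regions, up to 8 per list, are named. BMP7, FGF2 and NR3C1 were chosen after their values were seen. The birth result of 1 gene of the list of inducing signals is not reported here. The members and lists were chosen with earlier results of these data known.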

Additional observations from a re-analysis of the deposited data

Results flagged for a closer look

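MT3 in brainstem at 130 d had 1 array apart from the others, replicate 1 at 14.75 against 15.19 to 15.23 on the others, and both MT3 probes read low on it (14.72 and 14.77). It is 1 of 89 groups of 4 arrays looked at for the 4 genes, and chance gives about 1 in 20 groups. The estimates of the fetal and the birth change do not use this age, but its arrays enter the spread behind their SE and p values.

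The fetal change of EAAT2 differed between regions in the test of the difference itself (adjusted p = 0.0424, limma interaction F test over 95 arrays), being 2.16 in cortex and 1.92 in hippocampus against 1.37 in brainstem and 1.35 in hypothalamus on the log2 scale. This call was lost without any 1 of 19 of the arrays, and with an offset of 16, the brightest probe or the GLT-1 probe averaged in. The fit treats arrays that share animals as independent.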

How the results depend on the processing

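For the 4 genes, 597 of 614 recomputed values outside the leave-one-out fits kept their side of the threshold, 10 lost the call and 7 gained one. No change that passed in either fit turned its sign. Some changes that passed in neither did, such as the hypothalamic birth changes of EAAT2 (-0.02 to 0.27) and MT3 (0.2 to -0.08) with the scaled processed signal. With scanner processed signals aligned at the 75th percentile the birth change of AQP4 in brainstem was -1.33 and passed, that of GFAP in brainstem was 0.87 and did not, and the difference between regions in the fetal change of GFAP had an adjusted p of 0.0318. The F test of MT3 in hippocampus did not pass with this scaling (0.126) and that of AQP4 in hypothalamus did (0.0169). This scaling moved the median fetal change of all genes in hippocampus from 0 to 0.12. The birth change of AQP4 in hypothalamus no longer passed with the authors' series table (-2.8) or, an alternative added after seeing the data, with marked spots kept (-3.02). The difference between regions in the fetal change of EAAT2 had an adjusted p of 0.108 with an offset of 16, 0.0513 with the brightest probe and 0.0815 with the GLT-1 probe averaged in (added after seeing the data), and that of MT3 0.0116 with the series table, 0.0496 with deviating areas left out (added after seeing the data) and 0.0472 with age and replicate number as a random replicate block. The labels do not say what a replicate number marks. The deviations of same-numbered arrays from their group means had a median correlation of 0.0938 within a region and 0.0561 between regions, against -0.0383 and -0.0475 for other-numbered arrays, and 49.4% and 39.7% of the same-numbered pairs were over 0.1 against 29.6% and 21.5%, so that some but not all pairs deviate together. The replicate block within a region ended 1 call, the F test of AQP4 in brainstem (adjusted p = 0.0507, limma); leaving out the filter ended the same call (0.0525), as did the slide as a block (0.0573), which also added that of AQP4 in hypothalamus (0.0473) and shifted no fetal change by over 0.22. Leaving out 1 array at a time, the birth change of GFAP ranged in cortex from 0.6 to 0.88 and in brainstem from 0.93 to 1.25, the fetal change of AQP4 in brainstem from 0.83 to 1.14, its birth change from -1.27 to -0.69 there and, in hypothalamus, from -4.46 to -1.79, and the adjusted p of the difference between regions from 0.00278 to 0.0805 for EAAT2 and from 0.0293 to 0.136 for MT3. No neighbours in the order of regions or ages passed after adjustment under either scaling. The number of arrays and, for EAAT2, a signal near background limit the precision. The causes of these shifts were not tested.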
